A study of Rattus norvegicus with 12 samples.

Results

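The adrenergic receptors and the proteins that turn their signal into cyclic AMP (cAMP) were followed through the left ventricle of rats with heart failure after myocardial infarction. The genes were chosen by name from the deposited count table: the receptors Adrb1, Adrb3, Adra1a, Adra1b and Adra1d, the receptor kinase Grk5, the G protein subunit Gnas and the adenylyl cyclases Adcy5 and Adcy6. Of these 9 symbols, 8 matched 9 of the 30560 genes listed, since Gnas stood on 2 Ensembl genes, and 8 of the 9 passed the filter of at least 10 counts in total that left 18182 genes to test. Adra1a was not analysed here.

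RNA came from formalin-fixed, paraffin-embedded sections of the middle region of the left ventricle in 12 male Wistar rats, with 1 library per rat, and surgery was begun at 7 weeks of age. The 4 Sham rats (12, 17, 32 and 38) had their chest opened without a ligature and were gavaged with vehicle, 0.5% carboxymethylcellulose. In the 4 MI rats (36, 57, 61 and 89) the left anterior descending coronary artery was permanently ligated, and the same vehicle was given. The 4 MI + UA rats (29, 58, 64 and 66) had the ligation and received urolithin A (UA), a gut microbial metabolite of ellagitannins that induces mitophagy, by daily gavage for 8 weeks. The sections hold many cell types, and fewer cells of a type and less RNA per cell cannot be told apart in these values. The label of rat 66 puts it in MI + UA, while a supplementary list of the study has it among the vehicle-treated MI rats. It was analysed as labelled.

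Noradrenaline from sympathetic nerves and circulating adrenaline act on the heart through adrenergic receptors. Beta receptors couple to the stimulatory G protein, whose alpha subunit activates adenylyl cyclase, and the cAMP that is made switches on protein kinase A (PKA) and EPAC, which speed relaxation and strengthen contraction. Alpha1 receptors couple instead to Gq, phospholipase C and protein kinase C. Receptor kinases phosphorylate the occupied receptor and arrestins then bind it, which ends its coupling, and heart failure is known for a blunted response to beta agonists.

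Reads on genes numbered 6228706 to 8958828 per library in Sham, 6829591 to 12743184 in MI and 6819444 to 19031695 in MI + UA, and 50.2% to 58.6% of them fell on mitochondrially encoded genes. The 10 cardiomyocyte markers summed to 52290 to 59665 CPM in Sham (counts scaled to a common library size, with correction for library composition), 37223 to 43695 in MI and 38716 to 50254 in MI + UA. Ttn alone gave a mean of 35318 of these CPM in Sham and 25887 in MI. Of these 10 genes, 9 were called lower in MI than in Sham. The 8 fibroblast markers summed to 1186 to 1489 CPM in Sham, 2313 to 4013 in MI and 2379 to 4122 in MI + UA, and 7 were called higher in MI. The 6 macrophage markers summed to 71.6 to 85.1, 130 to 170 and 118 to 183 CPM, with 5 called higher in MI. Of the endothelial markers 1 of 6 was called lower in MI, of the smooth muscle and pericyte markers 4 of 7 higher and of the lymphocyte markers 0 of 4. In MI + UA versus Sham 9 of the 10 cardiomyocyte markers were called lower, and 7 of the 8 fibroblast and 5 of the 6 macrophage markers higher. These 3 sums each separated both infarcted groups from Sham without overlap. The part of these sums in the differences from Sham below was not tested.

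MI was compared with Sham to ask what infarction and failure changed, MI + UA with MI to ask what UA changed in infarcted hearts, and MI + UA with Sham to ask where treated hearts stood. In MI, 3 of the 8 genes tested fell: Adrb1, Adcy5 and Adcy6 (edgeR quasi-likelihood test, adjusted p under 0.05 over all genes, hereafter called). None rose. Of all genes tested, 11.4% were called in either direction, 5.53% lower and 5.82% higher. The median log2 fold change over the 8 was -0.36, beside 0.026 over all genes tested. The MI and Sham rats did not overlap at 2 of the 8, Adrb1 and Adcy6, beside 15.7% of all genes.

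In MI + UA versus MI no gene of the 8 was called, and none of the 18182 was (0%), with edgeR or with DESeq2. At an unadjusted p under 0.05 edgeR gave 689 genes, or 3.79%, of which 1 was a Gnas gene. The median over the 8 was -0.011 on the log2 scale, beside 0.0047 over all genes. The treated and untreated MI rats did not overlap at 1 of the 8, beside 2.34% of all genes. In MI + UA versus Sham, Adrb1 and Adcy5 were called lower, 2 of the 8, where 9.44% of all genes were called, 4.27% lower and 5.16% higher. The median over the 8 was -0.29, beside 0.023 over all genes. These groups did not overlap at 3 of the 8, Adrb1, Adcy5 and a Gnas gene, beside 14.3% of all genes. Both comparisons with Sham share the same 4 Sham rats and are not independent of each other.

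**Figure D1:**
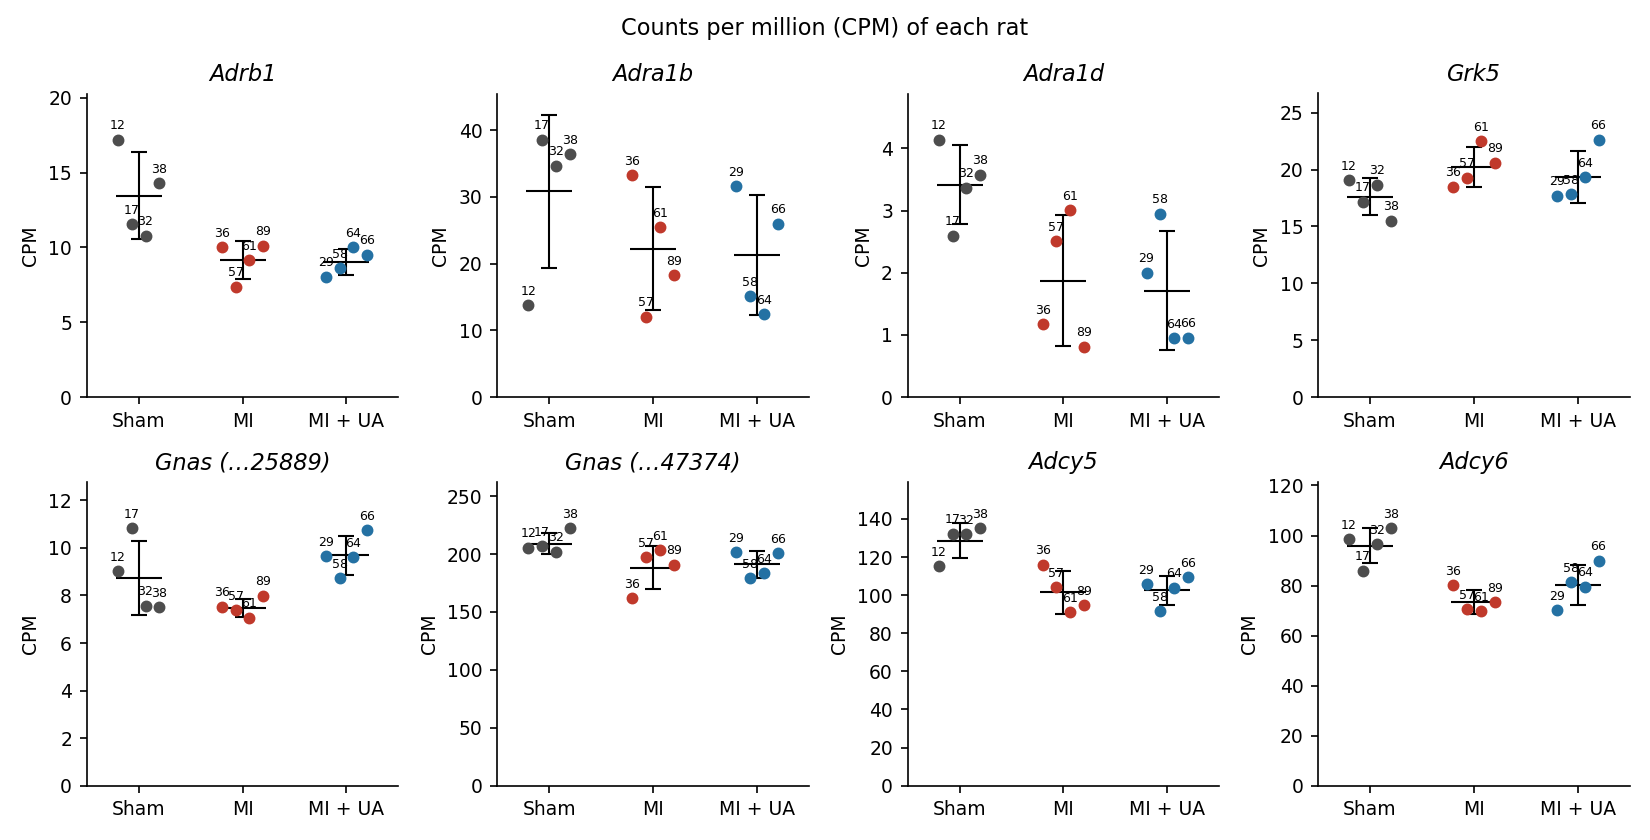
CPM of each tested gene (vertical axis, from 0) in the Sham, MI and MI + UA rats; each point is 1 rat with its number, the long bar is the group mean and the whiskers are 1 SD (n = 4). Adcy6 and Adrb1 separate MI from Sham, while Adra1b spreads about as widely inside each group as between groups.

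Adrb1 (ENSRNOG00000017002) encodes the beta-1 receptor, the main beta receptor of cardiomyocytes. It stood at 17.2, 11.5, 10.8 and 14.3 CPM in Sham rats 12, 17, 32 and 38. In MI rats 36, 57, 61 and 89 it stood at 10.0, 7.37, 9.13 and 10.1 CPM. In MI + UA rats 29, 58, 64 and 66 it stood at 8.06, 8.60, 10.0 and 9.51 CPM. Every infarcted rat, treated or not, lay below every Sham rat, and rats 12 and 38 were the highest of the Sham group. The group means were 13.5 ± 2.91, 9.15 ± 1.27 and 9.05 ± 0.881 CPM (SD, n = 4).

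Adrb1 fell by 31.5% in MI, a log2 fold change of -0.55 (95% CI -0.87 to -0.22, edgeR adjusted p = 0.0251). Between MI + UA and MI the log2 fold change was -0.041 (95% CI -0.36 to 0.28, edgeR adjusted p = 0.9998), an interval that spans 0. Against Sham, the MI + UA rats were lower by a log2 fold change of -0.59 (95% CI -0.91 to -0.27, edgeR adjusted p = 0.0184). The MI versus Sham call rested on several libraries: the log2 fold change and edgeR adjusted p were -0.41 and 0.113 without rat 12, -0.52 and 0.0742 without rat 38, -0.47 and 0.0646 without rat 57, and -0.54 and 0.0609 without rat 61. For MI + UA versus Sham they were -0.45 and 0.0845 without rat 12, -0.56 and 0.0611 without rat 38, and -0.52 and 0.0705 without rat 29.

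Adrb3 (ENSRNOG00000012674), the beta-3 receptor, best known from adipocytes, had 1 count in all 12 libraries together, in MI rat 36, and was not tested. A count of 0 allows up to 3 counts, or 0.169 to 0.505 CPM depending on the library, counting error only. The adipocyte markers were also close to 0, at 0 to 3.73 CPM summed over 5 genes.

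Adra1b (ENSRNOG00000060087) encodes the alpha1B receptor, which couples to Gq. Its level was 13.8, 38.5, 34.7 and 36.4 CPM in Sham rats 12, 17, 32 and 38. The MI rats 36, 57, 61 and 89 had 33.3, 12.1, 25.4 and 18.2 CPM. The MI + UA rats 29, 58, 64 and 66 had 31.6, 15.2, 12.4 and 26.0 CPM. Each group held both low and high rats, and the groups overlapped throughout. Rat 12 was low in Sham, rat 57 in MI, and rats 58 and 64 in MI + UA.

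The highest Adra1b level in a group was 2.79, 2.75 and 2.54 times the lowest in Sham, MI and MI + UA. Its within-group SD was 0.65 on the log2 CPM scale, where the 1000 genes nearest in level had a median of 0.15 and 99.5% of them a smaller value. The counts behind it ran from 77 to 553 per library. No difference between groups was called: the log2 fold change was -0.44 in MI versus Sham (95% CI -1.06 to 0.19, edgeR adjusted p = 0.416), -0.044 in MI + UA versus MI (95% CI -0.66 to 0.57) and -0.48 in MI + UA versus Sham (edgeR adjusted p = 0.377). The MI versus Sham estimate was -0.26 without rat 57, -0.69 without rat 12 and -0.70 without rat 36. That of MI + UA versus Sham was -0.31 without rat 64, -0.72 without rat 29 and -0.73 without rat 12, and none of these was called.

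Adra1d (ENSRNOG00000021256), the alpha1D receptor, known mostly from vascular smooth muscle, was scarce, with 7 to 35 counts per library. It stood at 4.14, 2.60, 3.37 and 3.58 CPM in Sham rats 12, 17, 32 and 38. The values were 1.17, 2.51, 3.01 and 0.815 CPM in MI rats 36, 57, 61 and 89. They were 2.00, 2.95, 0.947 and 0.956 CPM in MI + UA rats 29, 58, 64 and 66. The infarcted rats reached from well under the Sham range into it, with rats 61 and 58 inside. The estimated log2 fold change was -0.94 in MI (95% CI -1.76 to -0.13), but it was not called (unadjusted p = 0.0254, edgeR adjusted p = 0.137). In MI + UA it was -1.03 against Sham (edgeR adjusted p = 0.106) and -0.090 against MI (95% CI -0.93 to 0.75). Without rat 58 the MI + UA versus Sham value was -1.34 with an edgeR adjusted p of 0.0458, the only one of 12 fits without 1 rat that called it (none of 7 other settings did), and without rat 66 it was -0.79 with an edgeR adjusted p of 0.248. The 7 smooth muscle and pericyte markers summed to 603 to 625 CPM in Sham, 603 to 764 in MI and 616 to 697 in MI + UA. Abcc9 alone gave means of 394, 358 and 367 of these CPM in Sham, MI and MI + UA. Of the 7 markers 4 were called higher and none lower in MI versus Sham. In MI + UA versus Sham 1 was called higher and 1 lower.

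Grk5 (ENSRNOG00000011439) encodes a kinase that phosphorylates occupied receptors at the membrane. Its level was 19.1, 17.2, 18.7 and 15.5 CPM in Sham rats 12, 17, 32 and 38. The MI rats 36, 57, 61 and 89 had 18.5, 19.3, 22.5 and 20.6 CPM, and the MI + UA rats 29, 58, 64 and 66 had 17.7, 17.8, 19.4 and 22.6 CPM. Grk5 was the only gene of the 8 with a point estimate above 0 in MI versus Sham, but the ranges overlapped. The log2 fold change was 0.20 (95% CI -0.038 to 0.44, edgeR adjusted p = 0.309), -0.056 for MI + UA versus MI (95% CI -0.29 to 0.18) and 0.15 for MI + UA versus Sham (edgeR adjusted p = 0.508). Without 1 rat the MI + UA versus MI value ran from -0.15 (without rat 66) to -0.00076 (without rat 61), and it was -0.10 without rat 36, -0.011 without rat 29 and -0.021 without rat 58. With rat 66 counted in MI these MI + UA values were -0.18 and 0.055, and MI + UA versus Sham was 0.054 without rat 66 and 0.087 without rat 38, none of them called.

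The ratio of Grk5 to Grk2, the other main receptor kinase of the heart, does not depend on how a library is scaled. Its log2 mean was -0.60 ± 0.17 in Sham, -0.40 ± 0.30 in MI and -0.42 ± 0.16 in MI + UA (SD, n = 4). MI rat 61, at 0.020, stood highest, and the groups overlapped. The MI minus Sham difference of 0.20 was 0.061 without rat 61 and 0.13 without rat 38. That of MI + UA minus Sham was 0.17, and 0.11 without rat 38 or rat 66. No comparison passed (two-sided exact permutation p = 0.4 for MI versus Sham, 0.971 for MI + UA versus MI and 0.171 for MI + UA versus Sham).

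Gnas encodes the stimulatory G protein alpha subunit. It is a complex imprinted locus with alternative promoters and shared exons, and the table carried its symbol on 2 Ensembl genes, which are reported apart. How the authors' counting divided reads between them is not given in the sources used here, so each value is uncertain to that extent. ENSRNOG00000047374 stood at 205, 207, 202 and 222 CPM in Sham rats 12, 17, 32 and 38. It stood at 162, 197, 204 and 191 CPM in MI rats 36, 57, 61 and 89, and at 201, 179, 183 and 201 CPM in MI + UA rats 29, 58, 64 and 66. MI rat 61 lay inside the Sham range, whereas all MI + UA rats lay below it, rats 29 and 66 narrowly and rats 58 and 64 by about the width of that range. The log2 fold change was -0.15 in MI versus Sham (95% CI -0.32 to 0.020, edgeR adjusted p = 0.281), 0.025 in MI + UA versus MI (95% CI -0.15 to 0.20) and -0.13 in MI + UA versus Sham (edgeR adjusted p = 0.402), and none was called. Without rat 36 the MI versus Sham estimate was -0.085.

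The other Gnas gene, ENSRNOG00000025889, stood at 9.03, 10.8, 7.57 and 7.51 CPM in Sham rats 12, 17, 32 and 38. In MI rats 36, 57, 61 and 89 it stood at 7.53, 7.37, 7.06 and 7.98 CPM. In MI + UA rats 29, 58, 64 and 66 it stood at 9.66, 8.73, 9.61 and 10.7 CPM. All 4 treated rats lay above all 4 MI rats, the only such separation among the 8 genes in this comparison. The Sham range, 7.51 to 10.8 CPM, held all 4 treated rats, while MI rats 57 and 61 lay below it. The log2 fold change of MI + UA versus MI was 0.38 (95% CI 0.082 to 0.67, unadjusted p = 0.0149) and did not pass the correction (edgeR adjusted p = 0.9998). With rat 66 counted in MI it was 0.18. Against Sham the log2 fold changes were -0.22 for MI (edgeR adjusted p = 0.409) and 0.16 for MI + UA (edgeR adjusted p = 0.587). The first was -0.10 without rat 17 and -0.083 with rat 66 counted in MI. The other was 0.27 without rat 17, 0.10 without rat 32, 0.087 without rat 38 and 0.099 without rat 66 or with it counted in MI, and none of these was called.

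Stimulatory and inhibitory G proteins act on adenylyl cyclase in opposite directions, so Gnas, summed over both genes, was set against Gnai2, a main inhibitory alpha subunit of the heart. The log2 ratio was 0.84, 0.63, 0.50 and 0.59 in Sham rats 12, 17, 32 and 38. It was 0.22, 0.39, 0.35 and 0.27 in MI rats 36, 57, 61 and 89. It was 0.39, 0.40, 0.14 and 0.65 in MI + UA rats 29, 58, 64 and 66. All MI rats lay below all Sham rats, and the MI + UA rats ran from below the MI range to inside the Sham range. The mean was 0.64 ± 0.14 in Sham, 0.31 ± 0.077 in MI and 0.39 ± 0.21 in MI + UA (SD, n = 4). The MI minus Sham difference of -0.33 had a two-sided exact permutation p of 0.0286, the smallest that 4 rats against 4 allow. It did not pass correction over the 9 ratio tests (adjusted p = 0.257). A lone ratio at that smallest p could not pass over 9 tests, so the correction cannot decide on this ratio. Neither gene was called alone, Gnai2 having a log2 fold change of 0.17 in MI (edgeR adjusted p = 0.291). For MI + UA minus MI the difference was 0.087 (exact permutation p = 0.486), and with rat 66 counted in MI it was -0.066. Without 1 rat it ran from 0.0021 (without rat 66) to 0.17 (without rat 64), with 0.057 without rat 36.

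Adcy5 (ENSRNOG00000002229) and Adcy6 (ENSRNOG00000054757) encode the pair of closely related, calcium-inhibited adenylyl cyclases that make most of the cAMP of cardiomyocytes. Adcy5 stood at 115, 132, 132 and 135 CPM in Sham rats 12, 17, 32 and 38. It stood at 116, 104, 90.9 and 94.6 CPM in MI rats 36, 57, 61 and 89, and at 106, 91.7, 104 and 109 CPM in MI + UA rats 29, 58, 64 and 66. Sham rat 12 lay apart below the other Sham rats and just under MI rat 36, which was the only overlap between Sham and MI, and all MI + UA rats lay below Sham. The means were 129 ± 9.12, 101 ± 11.2 and 103 ± 7.62 CPM (SD, n = 4).

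Adcy5 fell by 21.1% in MI, a log2 fold change of -0.34 (95% CI -0.53 to -0.15, edgeR adjusted p = 0.0159). In MI + UA it was lower than in Sham by a log2 fold change of -0.32 (95% CI -0.51 to -0.14, edgeR adjusted p = 0.0256), and MI + UA versus MI gave 0.018 (95% CI -0.17 to 0.21). For MI versus Sham the log2 fold change and edgeR adjusted p were -0.32 and 0.0568 without rat 38, -0.29 and 0.0672 without rat 61, and -0.31 and 0.0597 without rat 89. The MI + UA versus Sham call was lost without rat 17, 32, 38, 29, 58 or 64, with log2 fold changes from -0.33 to -0.28 and edgeR adjusted p from 0.0528 to 0.0859.

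Adcy6 stood at 98.5, 86.0, 96.6 and 103 CPM in Sham rats 12, 17, 32 and 38. In MI rats 36, 57, 61 and 89 it stood at 80.2, 70.6, 69.7 and 73.3 CPM, and in MI + UA rats 29, 58, 64 and 66 at 70.2, 81.4, 79.6 and 89.9 CPM. All MI rats lay below all Sham rats, while MI + UA rat 66 reached above Sham rat 17. Rat 66 also had the highest cardiomyocyte marker sum of the 8 infarcted rats (50254 CPM, the next being 43695) and the lowest fibroblast (2379 CPM) and macrophage (118 CPM) sums of the MI + UA rats, and their part in its Adcy6 level was not tested. The means were 96.0 ± 7.15, 73.5 ± 4.75 and 80.3 ± 8.06 CPM (SD, n = 4). Adcy6 fell by 23.4% in MI, a log2 fold change of -0.38 (95% CI -0.57 to -0.20, edgeR adjusted p = 0.00655). This was the only call among the 8 genes that passed in all 12 fits that each left out 1 rat, with a largest edgeR adjusted p of 0.0315.

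For Adcy6 the MI + UA versus MI log2 fold change was 0.13 (95% CI -0.059 to 0.31, unadjusted p = 0.171, edgeR adjusted p = 0.9998), 0.064 without rat 66 and -0.00059 with rat 66 counted in MI. Against Sham, MI + UA had a log2 fold change of -0.26 (95% CI -0.44 to -0.074) that just missed the threshold (edgeR adjusted p = 0.0739). It was not called in 11 of 12 fits without 1 rat or in 5 of 7 other settings, and without rat 29 it was -0.19 with an edgeR adjusted p of 0.265. It was called with DESeq2 (adjusted p = 0.0409), without rat 66 (log2 fold change -0.32, edgeR adjusted p = 0.0268) and with rat 66 counted in MI (edgeR adjusted p = 0.0490). The log2 ratio of Adcy5 to Adcy6 counts was 0.42 ± 0.16 in Sham, 0.46 ± 0.10 in MI and 0.36 ± 0.18 in MI + UA (SD, n = 4). No difference in this ratio was found (two-sided exact permutation p = 0.714 for MI versus Sham, 0.4 for MI + UA versus MI and 0.571 for MI + UA versus Sham).

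**Figure D2:**
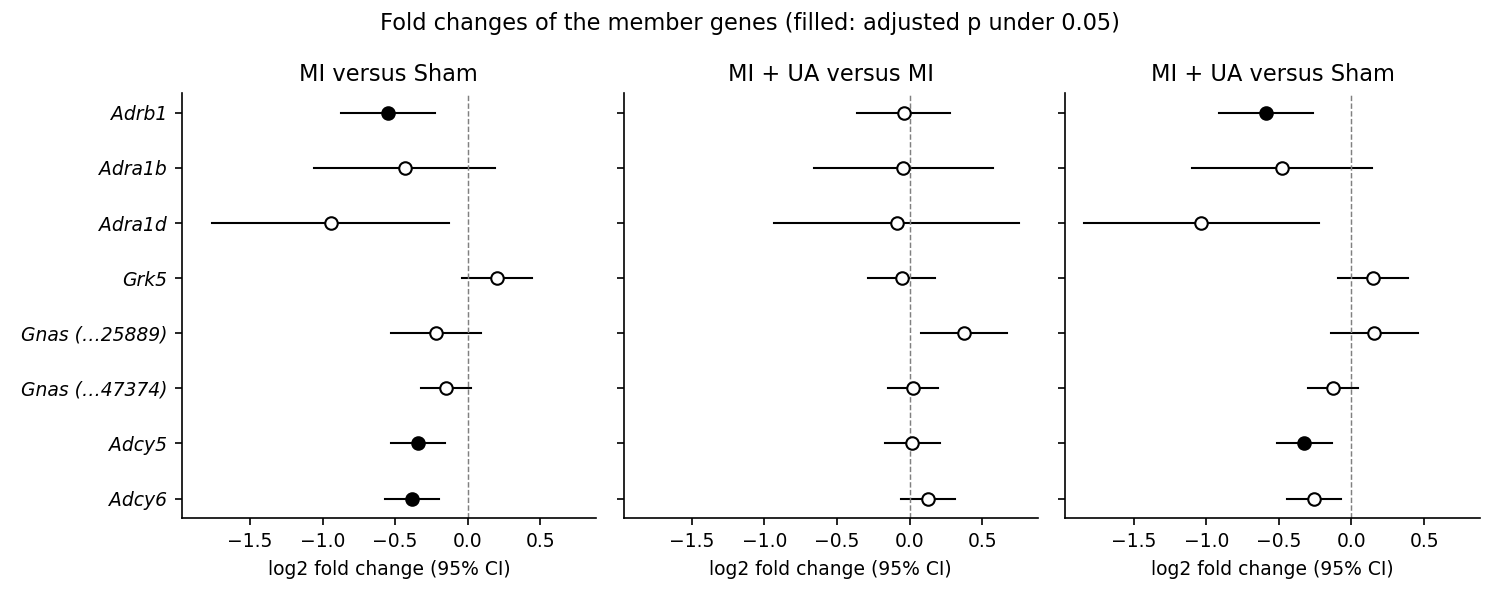
Log2 fold changes of the 8 tested genes (points) with 95% confidence intervals (lines) from edgeR in the 3 comparisons; filled points have an adjusted p under 0.05. Adrb1, Adcy5 and Adcy6 are filled in MI versus Sham, Adrb1 and Adcy5 in MI + UA versus Sham and none in MI + UA versus MI.

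Of the 3 genes that fell, the stretch of 250 bases before the annotated start was read for Adrb1 and Adcy5 (RefSeq, build GRCr8). Adcy6 had no such stretch in the sources used here. The sequences of Adrb1 and Adcy5 are shown because both genes were called in the same direction and their promoters can be set side by side. The Adrb1 stretch lies at chr1:265776853-265777102 on the plus strand and that of Adcy5 at chr11:79123344-79123593 on the minus strand, both written 5′ to 3′ in the direction of the gene. Capitals mark matches, on either strand, to the core of the cAMP response element (TGACG) and to the GC box (GGGCGG, or CCGCCC on the other strand).
Adrb1: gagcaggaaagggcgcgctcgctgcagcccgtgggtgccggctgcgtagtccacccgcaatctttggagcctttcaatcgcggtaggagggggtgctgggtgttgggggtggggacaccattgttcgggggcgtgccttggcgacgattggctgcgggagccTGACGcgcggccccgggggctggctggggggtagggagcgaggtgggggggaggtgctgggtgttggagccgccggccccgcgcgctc
Adcy5: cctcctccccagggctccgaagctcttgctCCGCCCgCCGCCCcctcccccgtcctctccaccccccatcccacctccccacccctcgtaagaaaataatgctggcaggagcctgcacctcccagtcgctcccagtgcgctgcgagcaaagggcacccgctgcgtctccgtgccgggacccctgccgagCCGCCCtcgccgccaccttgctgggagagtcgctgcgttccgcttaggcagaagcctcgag
Adrb1 held 1 match to TGACG, beginning 88 bases before the start, and none to GGGCGG. Adcy5 held 3 matches to GGGCGG, beginning 220, 213 and 61 bases before the start, and none to TGACG. Among 33469 rat promoters of the same length, 18.2% held TGACG and 30.5% held GGGCGG. Neither stretch held the full element TGACGTCA (1.59% of promoters), the TATA box TATAAA (12.9%) or the E-box CACGTG (5.59%). Both were rich in G and C, at 72% for Adrb1 and 70% for Adcy5, more than 94% and 91.8% of those promoters. A match is a run of letters and not a measured binding site.

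The other genes of the pathway were taken from 10 lists by role, with 68 genes in the table and 66 tested. In MI versus Sham 5 were called higher and 4 lower, beside 11.4% of all genes called, with a median log2 fold change of 0.028 beside 0.026 over all genes. In MI + UA versus MI none was called with edgeR or DESeq2 (4 at an unadjusted p under 0.05), and in MI + UA versus Sham 4 were called higher and 3 lower, beside 9.44% of all genes.

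Among the other adenylyl cyclases, 7 of 8 were tested, and in each comparison with Sham 1 was called higher, 1 lower and 5 were not called. Over all genes, 5.82% were called higher and 5.53% lower in MI versus Sham. In MI + UA versus Sham these shares were 5.16% and 4.27%. Adcy7, a cyclase abundant in leukocytes, was at 5.64 to 8.70 CPM in Sham, 19.9 to 27.3 in MI and 17.1 to 29.1 in MI + UA. Infarcted and Sham rats were far apart, with log2 fold changes of 1.69 in MI (edgeR adjusted p = 3.57e-06) and 1.56 in MI + UA (edgeR adjusted p = 1.11e-05). Adcy1, a calmodulin-stimulated cyclase best known from neurons, was at 46.5 to 49.9 CPM in Sham, 30.2 to 33.1 in MI and 29.7 to 42.1 in MI + UA. It fell in MI by 35.7%, a log2 fold change of -0.64 (edgeR adjusted p = 0.000253), and in MI + UA against Sham by a log2 fold change of -0.43 (edgeR adjusted p = 0.00801). Between MI + UA and MI the Adcy1 estimate was 0.21 (unadjusted p = 0.0473, edgeR adjusted p = 0.9998). Both genes passed in MI versus Sham in every fit that left out 1 rat. The macrophage markers that rose in MI with Adcy7 are given above, and their part in its rise was not tested.

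Downstream of cAMP, the PKA list (8 genes, all tested) had 2 called lower in MI and 7 of 8 point estimates below 0, with a median of -0.24, beside 5.53% called lower and a median of 0.026 over all genes. Prkaca, the main catalytic subunit, was at 140 to 168 CPM in Sham and 110 to 117 in MI, a log2 fold change of -0.40 (edgeR adjusted p = 0.00144). In MI + UA Prkaca was at 112 to 125 CPM, a log2 fold change of -0.37 against Sham (edgeR adjusted p = 0.00318). These ranges left no overlap between Sham and either infarcted group. Prkar1a, a regulatory subunit that holds the catalytic subunit inactive, had a log2 fold change of -0.27 in MI (edgeR adjusted p = 0.0233), not called without rat 17, 32, 38 or 89 (log2 fold changes -0.27 to -0.23, edgeR adjusted p 0.0557 to 0.0942). Akap6, which anchors PKA at the nuclear envelope and sarcoplasmic reticulum of myocytes, was the only called gene of the 6 anchoring proteins, with a log2 fold change of -0.31 in MI (edgeR adjusted p = 0.0346) and in MI + UA versus Sham (edgeR adjusted p = 0.0384). Each Akap6 call was lost in 7 of 12 fits that left out 1 rat, which were rats 12, 17, 32, 36, 61, 89 and 29 for MI (log2 fold changes -0.32 to -0.26, edgeR adjusted p up to 0.118) and rats 12, 17, 32, 38, 29, 58 and 64 for MI + UA (-0.33 to -0.26, up to 0.131). None of the 5 EPAC and Popeye genes or the 3 PKA targets was called in any comparison.

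At the receptor, none of the 3 alpha2 receptor genes was called. Of 10 receptor kinases, arrestins and RGS proteins, 1 was called in MI versus Sham, beside 11.4% of all genes. None was called in MI + UA versus Sham, beside 9.44% of all genes. Arrb2, encoding beta-arrestin 2, was at 4.89 to 8.25 CPM in Sham, 10.3 to 12.5 in MI and 7.76 to 8.86 in MI + UA. Its rise in MI had a log2 fold change of 0.77 (edgeR adjusted p = 0.00235). MI + UA rats lay below all MI rats, with a log2 fold change of -0.42 that did not pass correction (unadjusted p = 0.00946, edgeR adjusted p = 0.9998). Of 12 G protein subunits Gnb4, a beta subunit, was called only in MI + UA versus Sham, with a log2 fold change of 0.78 (edgeR adjusted p = 0.00733), beside 0.55 in MI versus Sham (edgeR adjusted p = 0.0529) and 0.23 in MI + UA versus MI (edgeR adjusted p = 0.9998).

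Among the 6 alpha1 effectors 2 were called higher in MI, the protein kinase C genes Prkcd and Prkca, and none lower, beside 5.82% of all genes called higher, and the list's median log2 fold change was 0.087 beside 0.026 over all genes. A further protein kinase C gene of the list, Prkce, named after its values were seen, was not called but had estimates below 0, of -0.37 in MI versus Sham (edgeR adjusted p = 0.0752) and -0.33 in MI + UA versus Sham (edgeR adjusted p = 0.130), without overlap with Sham in either. Prkcd was at 14.0 to 15.8 CPM in Sham, 17.6 to 24.9 in MI and 20.1 to 24.5 in MI + UA, with log2 fold changes against Sham of 0.52 (edgeR adjusted p = 0.00599) and 0.58 (edgeR adjusted p = 0.00306). Prkca had smaller log2 fold changes of 0.29 (edgeR adjusted p = 0.0486) and 0.32 (edgeR adjusted p = 0.0306). In MI versus Sham the Prkca call was kept in 3 of 12 fits without 1 rat, being lost without any of rats 17, 32, 38, 36, 57, 89, 58, 64 and 66 (log2 fold changes 0.24 to 0.31, edgeR adjusted p up to 0.138), and in 3 of 7 other settings. In MI + UA versus Sham it was lost without rat 17, 32, 38, 29, 58 or 64 (edgeR adjusted p up to 0.0977).

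Of the 7 genes for catecholamine synthesis and clearance, 6 were tested. Maoa, a monoamine oxidase of the outer mitochondrial membrane that degrades noradrenaline, was at 240 to 318 CPM in Sham, 379 to 653 in MI and 312 to 407 in MI + UA. It rose in MI by a log2 fold change of 0.68 (edgeR adjusted p = 0.00294). In MI + UA it was not called against Sham (0.31, edgeR adjusted p = 0.204) or against MI (-0.38, unadjusted p = 0.0151, edgeR adjusted p = 0.9998). Markers of nerve and Schwann cells summed to 14.5 to 17.3 CPM in Sham, 16.9 to 26.9 in MI and 20.1 to 62.3 in MI + UA. Rat 58 alone reached 62.3 CPM, and the other MI + UA rats, at 20.1 to 25.1, lay inside the MI range. Of these 4 markers 1 was called higher in MI and 3 in MI + UA, both against Sham. In a fit without rat 58, added after the data were seen, these counts were 2 and 1.

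**Figure D3:**
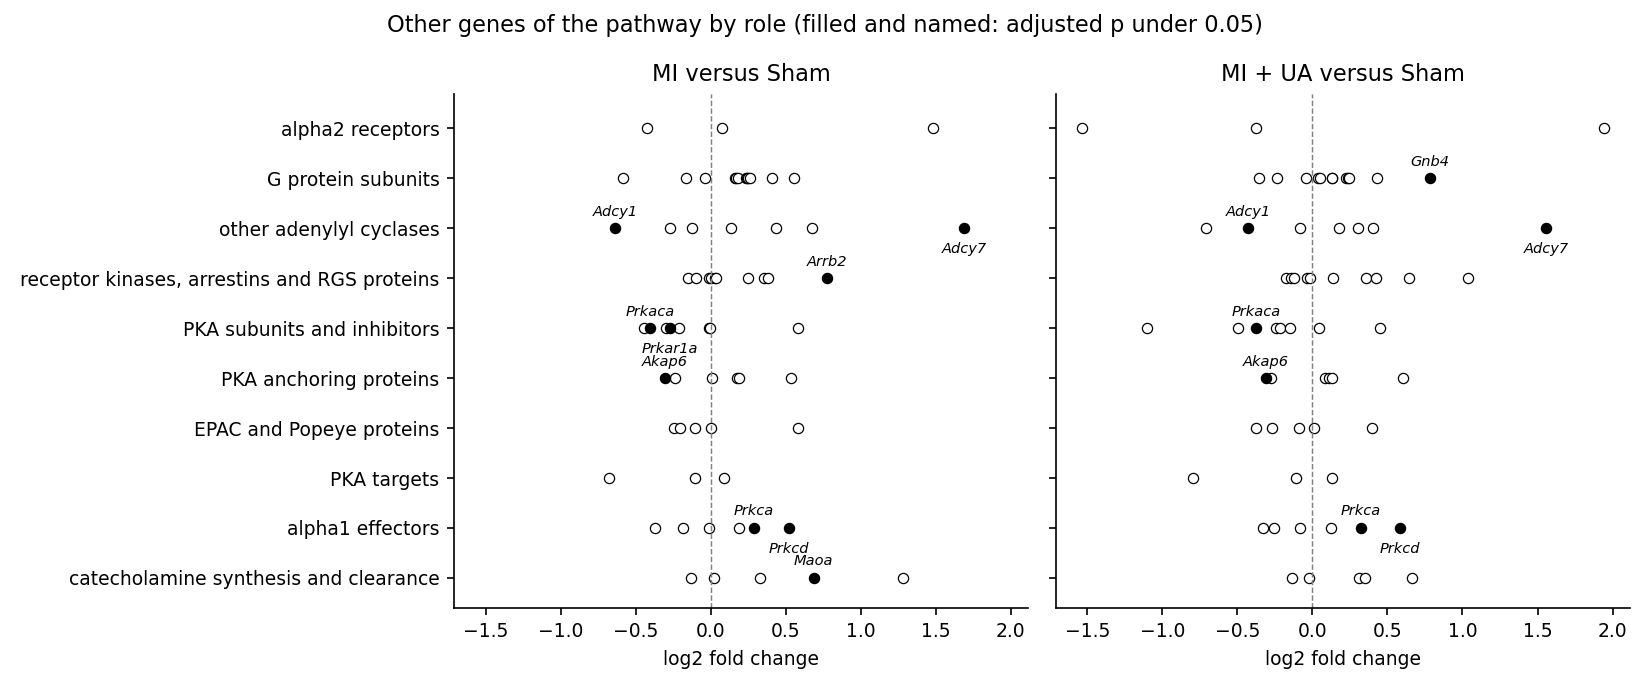
Log2 fold changes from edgeR of the other pathway genes tested, by role, in MI versus Sham (left) and MI + UA versus Sham (right); filled points are named and have an adjusted p under 0.05. Slc6a2, with no count in any Sham library, is not drawn. Adcy7 lies farthest right of the filled points in both panels, and Prkaca, Adcy1 and Akap6 are filled to the left of 0 in both.

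Across the 12 libraries the 3 genes that fell in MI varied together to different degrees. On the log2 CPM scale Pearson's r was 0.80 between Adrb1 and Adcy6, 0.74 between Adcy5 and Adcy6 and 0.57 between Adrb1 and Adcy5. After subtracting group means these became 0.52, 0.24 and -0.23, the last of opposite sign. These r are descriptions over 12 libraries that share 3 groups. The low Adra1b rats 12, 57, 58 and 64 were not low together in Adrb1. There rat 12 was the highest of all, at 17.2 CPM, and rat 57 the lowest, at 7.37 CPM. Between Adra1b and Adrb1 r was 0.14, and -0.28 after subtracting group means.

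Each gene was also set beside the 3 genes of 10929 whose log2 CPM followed it most closely over the 12 libraries, as a description. For Adcy5 these were Coq10a (r = 0.97), Mybpc3, which encodes cardiac myosin-binding protein C (0.97), and Gatd3a (0.96), and with group means removed r was still 0.91, 0.95 and 0.89. Mybpc3 was at 491, 541, 551 and 562 CPM in Sham rats 12, 17, 32 and 38, 484, 456, 371 and 406 in MI rats 36, 57, 61 and 89, and 426, 343, 408 and 460 in MI + UA rats 29, 58, 64 and 66. Like Adcy5 it was lowest in rat 12 among Sham, in rat 61 among MI and in rat 58 among MI + UA. For Adcy6 the closest were AABR07052523.2 (0.96), Mrpl15, of the mitochondrial ribosome (0.95), and AABR07044900.1 (0.95).

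For Adrb1 the closest were Tmem94 (0.95), Dlc1 (0.93) and Impa2 (0.92). For Adra1b they were Rpusd1 (0.89), Rcor2 (0.89) and Ache, which encodes acetylcholinesterase (0.89), with r of 0.91, 0.88 and 0.88 after removal of group means. Rpusd1 was at 2.88, 2.20 and 2.70 CPM in rats 12, 57 and 58, its lowest values, and at 3.25 CPM in rat 64. For Grk5 they were Cd55 (0.82), Wls (0.82) and Impact (0.81), and for Adra1d Atf1 (0.87), Commd9 (0.82) and Dcun1d2 (0.82). Gnas ENSRNOG00000047374 was followed by Psmb1 (0.86), Hspe1 (0.86) and Tmem135 (0.85), and Gnas ENSRNOG00000025889 by Psmd13 (0.90), Arid1b (0.84) and Anp32a (0.84).

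**Figure D4:**
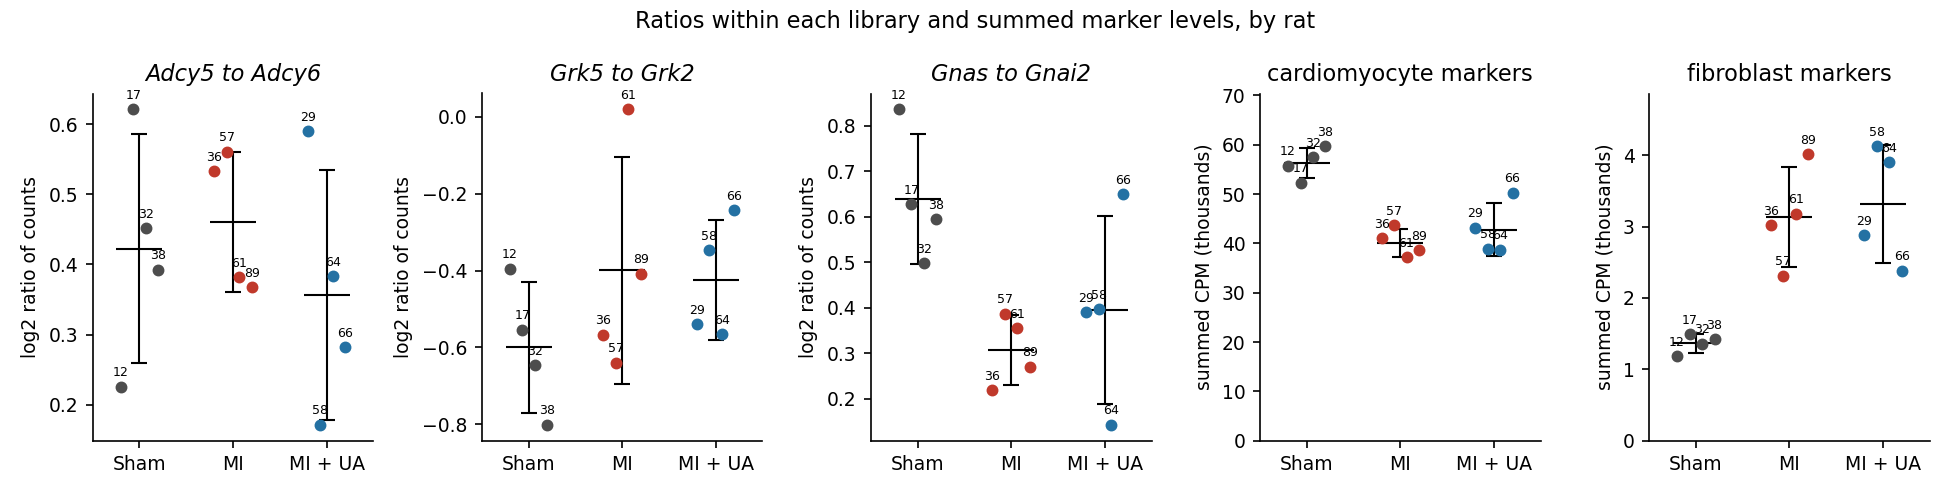
The 3 ratios within each library (log2 ratio of counts, left panels) and the summed CPM (axis in units of 1000) of the cardiomyocyte and fibroblast markers (right panels) by rat and group, with means and SD (n = 4). The Gnas to Gnai2 ratio and the cardiomyocyte sum are lower and the fibroblast sum higher in every MI rat than in every Sham rat.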

How the data were processed

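Strand-specific, paired-end libraries were made after rRNA depletion from left ventricular sections (RNeasy FFPE). The labels name the molecule polyA RNA. Per the submitters' processing notes, reads were handled with STAR 2.6.1c, HTSeq and MultiQC 1.8 on build mRatBN7.2; the strand setting of the counting is not given in the sources used here. The deposited values are raw counts per Ensembl gene that the authors did not normalize. The labels' protocol lists 1 more MI + UA sample, which is not among the libraries analysed here. The study states that it excluded an MI + UA sample as an outlier in a principal component analysis.

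After removal of genes with fewer than 10 counts over all libraries, groups were compared with edgeR 4.0.16 (R 4.3.3) by its quasi-likelihood test after TMM normalization, 3 groups in 1 fit, Benjamini-Hochberg over all genes tested, threshold 0.05. CPM use TMM library sizes, and log2 CPM a prior count of 1. Ratios used log2 of (count + 0.5) per rat and two-sided exact permutation tests; that of Adra1a to Adra1b could not be computed. The scripts were tested on simulated data. Libraries were compared in 66 pairs: none was identical and the smallest chi-square per degree of freedom was 1.95. Depth is low for Adrb3 (1 count in all) and Adra1d (7 to 35 counts per library). The start and dose of UA differ between the study's own descriptions and are not printed.

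The genes, the pathway lists and the marker lists (cardiomyocyte, fibroblast, endothelial, smooth muscle and pericyte, macrophage, lymphocyte, adipocyte, nerve and Schwann cell) were chosen with earlier results of these data known. Named were all members, pathway genes past the threshold in any comparison, ratio partners, and for each member with an average log2 CPM of at least 1 the 3 genes of highest Pearson r. Alternatives were DESeq2 1.42.0, its size factors in edgeR, no filter on low counts, filterByExpr, TMM without mitochondrially encoded genes, a fit of 2 groups only, a pseudocount of 2 in ratios, rat 66 counted in MI, and leaving out each rat in turn. For pathway genes they were added after the data were seen. Promoter sequences came from RefSeq, which matched 6 of the 9 symbols. Coordinates are those of GRCr8, a different build from that of the counts.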

Additional observations from a re-analysis of the deposited data

Results flagged for a closer look

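With 4 rats per group, 57 groups of values (each gene, ratio and marker sum in each group) were searched for a rat standing apart from the other 3. A group was picked out when the gap between its extreme rat and the nearest other rat exceeded Dixon's 95% critical share of the group's range. Chance picks out about 1 in 20 groups, or 2.85 here, and 3 were.

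Adra1b in Sham was picked out with a gap of 0.897 of the range, because rat 12 stood at 3.80 log2 CPM and the other Sham rats at 5.12 to 5.27. Adcy5 in Sham was picked out with a gap of 0.862, and again rat 12 was the lowest, at 6.85 log2 CPM beside 7.05 to 7.08. The same rat had the highest Adrb1 of the 12 (17.2 CPM), and its cardiomyocyte marker sum of 55791 CPM lay inside the Sham range. Without rat 12 the MI versus Sham log2 fold changes were -0.41 for Adrb1 (no longer called, edgeR adjusted p = 0.113), -0.39 for Adcy5 (still called) and -0.69 for Adra1b (not called with or without that rat).

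The summed adipocyte markers in MI were picked out with a gap of 0.833, because rat 36 stood at 2.24 on the scale of log2(summed CPM + 1) and the other MI rats at 0.142 to 0.493. These sums rest on very few counts. Rat 36 was also the MI rat with the single Adrb3 count, and the highest MI rat for Adra1b, Adcy5 and Adcy6. It was not the highest MI rat for Adrb1, Adra1d, Grk5 or either Gnas gene. Whether that section held fat, and whether fat bears on these values, was not tested.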

How the results depend on the processing

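The falls of Adrb1, Adcy5 and Adcy6 in MI, and of Adrb1 and Adcy5 in MI + UA versus Sham, kept their direction in every alternative run and were called in all 7 that kept every rat. Leaving out each rat in turn gave 1 to 3 members called in MI versus Sham (1 without rat 38 or 61) and 0 to 3 in MI + UA versus Sham (0 without rat 38 or 29). Calls over all genes in these fits numbered 1467 (without rat 61) to 2182 in MI versus Sham, beside 2064 with every rat, and 1152 (without rat 38) to 1895 (without rat 66) in MI + UA versus Sham, beside 1716. For MI + UA versus Sham, the pathway genes called numbered 7, 11 with DESeq2, 12 with rat 66 counted in MI and 5 to 12 without 1 rat (12 without rat 66), and those over all genes 1921 with DESeq2 and 1830 with rat 66 counted in MI. Genes called in MI + UA versus MI numbered 3 with no filter on low counts and 0 to 1 without 1 rat (1 without rat 36). The cause of these changes was not tested.

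With rat 66 counted in MI, 5 estimates of MI + UA versus MI changed sign: Adra1d to 0.33, Adcy5 to -0.036, Adcy6 to -0.00059, Gnas (ENSRNOG00000047374) to -0.020 and the log2 ratio of Gnas to Gnai2 to -0.066. None of these was called either way. Leaving out 1 rat also moved uncalled estimates of MI + UA versus MI across 0, over -0.12 to 0.015 for Adrb1, -0.30 to 0.22 for Adra1b, -0.39 to 0.28 for Adra1d, -0.031 to 0.091 for Adcy5 and -0.043 to 0.064 for Gnas (ENSRNOG00000047374). The uncalled MI + UA minus MI difference in the log2 ratio of Grk5 to Grk2 ran from -0.11 (without rat 57) to 0.11 (without rat 61), and that of Adcy5 to Adcy6 in MI minus Sham from -0.028 (without rat 12) to 0.10 (without rat 17). Scaling by DESeq2 size factors or without mitochondrially encoded genes shifted the median of all genes by -0.011 to -0.0023 on the log2 scale. No paired analysis was possible because the groups share no rat numbers. With 4 rats per group, the 95% interval of MI + UA versus MI reached -0.93 to 0.75 on the log2 scale for Adra1d, and the other limits are the low counts of Adra1d and Adrb3 and the whole-section tissue.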
